A study of Mus musculus with 3 samples.

Results

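Imprinted growth genes are genes expressed mainly from the allele of 1 parent that act on prenatal growth and cell proliferation. The 10 described here were chosen by name: Igf2, Dlk1, Peg3, Mest, Plagl1 and Ndn, which are known to be expressed from the paternal allele, and H19, Meg3, Cdkn1c and Grb10, which are known to be expressed from the maternal allele. All 10 had a row among the 19471 genes of the deposited table. RNA with a poly(A) tail was sequenced from astrocytes of the cortex of wild-type mice, taken on postnatal day 1 and grown in culture for 7 days, within a series on the histone variant H2BE. The 3 libraries, named replicates 1, 2 and 3, came from pups 5, 6 and 8 and form a single group, so no genotype, age or treatment was contrasted. The age is that of the sample titles, age field and design text, while the names of the data columns begin with P0. All of these column names end in Ctrl, a control label that the libraries share. The labels call them biological replicates, and effects of the pup, of its culture and of its library cannot be told apart.

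Genomic imprinting rests on DNA methylation laid down differently in the egg and in the sperm, which marks control regions and leaves 1 parental allele of nearby genes active. Many paternally expressed imprinted genes promote growth and many maternally expressed ones restrain it. Igf2 and H19 form a reciprocal pair that shares enhancers and a control region bound by the insulator protein CTCF, and Dlk1 and Meg3 form another. Grb10 is a known exception: it is maternally expressed in most tissues and paternally expressed in neurons, and it was placed with the maternal class here. In the brain, Dlk1 has also been described as expressed from both alleles in neural stem cells and niche astrocytes, and Igf2 in choroid plexus and leptomeninges. Reads were not separated by allele in these files, so the classes are background knowledge and not a measurement.

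The libraries held 14380993, 25128038 and 9858626 reads in replicates 1, 2 and 3, a 2.55-fold range. The 10 genes together took 0.0711%, 0.0860% and 0.0719% of them. Where no read was found, the limit is 3 reads, or 1.42 to 3.59 normalized reads depending on the library. Xist, the RNA of the inactive X chromosome, stood at 3000 in replicate 1, 0.472 in replicate 2 and 4.78 in replicate 3, so replicate 1 stood apart in this gene. All 8 listed astrocyte markers had means of at least 100, and those of 7 were at least 1000. Of the other cell types, the 8 microglial markers summed to 24105, 18727 and 16024 in replicates 1, 2 and 3, and the 9 neuronal markers with a row to 776 to 1186. The 5 markers of oligodendrocyte precursors summed to 6388 to 8872, nearly all of it Olig1 and Olig2 at means of 5896 and 1240, while Pdgfra, Cspg4 and Sox10 were at 390, 151 and 14.9. In bulk RNA, fewer cells of a type and less RNA per cell cannot be told apart.

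The promoters of Mest and Meg3 show the kind of sequence that imprinting acts on, and these genes had the highest mean read count in the paternal and the maternal class. The Mest promoter lies in a region methylated in the egg and thus on the maternal allele, and the methyl-DNA-binding zinc finger protein ZFP57, which keeps imprints after fertilization, is known to recognise the methylated letters TGCCGC. The Meg3 promoter lies in a region methylated on the paternal allele. Below are the 250 bases before the annotated start, at chr6:30737800-30738049 for Mest and chr12:109540746-109540995 for Meg3, both on the plus strand of GRCm38.p6 and outside annotated exons. Capitals mark the letters TGCCGC on either strand, here in each case as the reverse complement GCGGCA.
Mest promoter: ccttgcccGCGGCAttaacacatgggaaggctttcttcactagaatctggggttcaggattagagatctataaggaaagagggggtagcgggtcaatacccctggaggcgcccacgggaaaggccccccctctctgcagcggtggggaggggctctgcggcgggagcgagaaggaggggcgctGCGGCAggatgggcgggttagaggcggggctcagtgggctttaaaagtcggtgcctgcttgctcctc
Meg3 promoter: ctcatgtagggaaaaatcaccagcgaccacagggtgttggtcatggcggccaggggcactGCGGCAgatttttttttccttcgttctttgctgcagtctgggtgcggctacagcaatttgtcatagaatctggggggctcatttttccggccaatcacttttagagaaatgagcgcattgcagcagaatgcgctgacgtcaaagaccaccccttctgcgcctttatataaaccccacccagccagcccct
The letters occurred at positions 9 and 184 of the Mest window and at position 61 of the Meg3 window, counted from 1 at the 5′ end. Over 32851 such windows of 250 bases, 8.68% held the letters at least once and 0.874% at least 2 times. Among the 8 genes with a promoter entry, which had 15 windows, the letters were found in 4 windows of Mest, Meg3 and Plagl1. Those of Mest, which start at 30737800 and 30737803, overlap almost wholly and hold the same matches. The Mest window held 14 CpG dinucleotides and the Meg3 window 10, against a median of 6 over all windows. These windows were printed as lying outside annotated exons, which no other window of the 2 genes did. The other windows held 7 and 14 CpG dinucleotides for Mest, with 14 in the overlapping window, and 0 for Meg3. A match describes these letters only.

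H19 and Mest also carry microRNAs, whose mature sequences are given because poly(A) libraries count the host transcript and not the microRNA. Capitals mark the seed, bases 2 to 8. In GENCODE vM21, miR-675 lies within an exon in 3 of the 7 annotated H19 transcripts, at chr7:142577078-142577133 on the minus strand for both arms together, and miR-335 lies inside Mest but in no exon of its 11 annotated transcripts, at chr6:30741314-30741375 on the plus strand.
mmu-miR-675-5p: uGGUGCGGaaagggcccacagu
mmu-miR-675-3p: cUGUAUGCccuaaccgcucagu
mmu-miR-335-5p: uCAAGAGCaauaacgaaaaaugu
mmu-miR-335-3p: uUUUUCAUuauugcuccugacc
These 4 arms have 4 different seeds.

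The 10 genes had mean normalized read counts from 66.6 for Igf2 to 3629 for Mest, which are not divided by length. Per kilobase of exon their median was 79.9, against 71.7 over the detected genes (mean of at least 10) with an annotated length. The paternal class held the highest gene and the lowest one on either scale. For 9 of the 10 genes the spread of reads over libraries exceeded what read sampling gives (chi-square test on recovered reads, adjusted p under 0.05). Over all genes tested 55.4% did so, and among genes of similar mean the share was between 34.7% for Igf2 and 88.9% for Mest. Leaving out replicate 1, 2 or 3 left 8, 6 and 6 such genes, against 35.8%, 40.2% and 37.0% of all genes. The test describes 3 cultures and sets them against sampling of reads only.

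**Figure D1:**
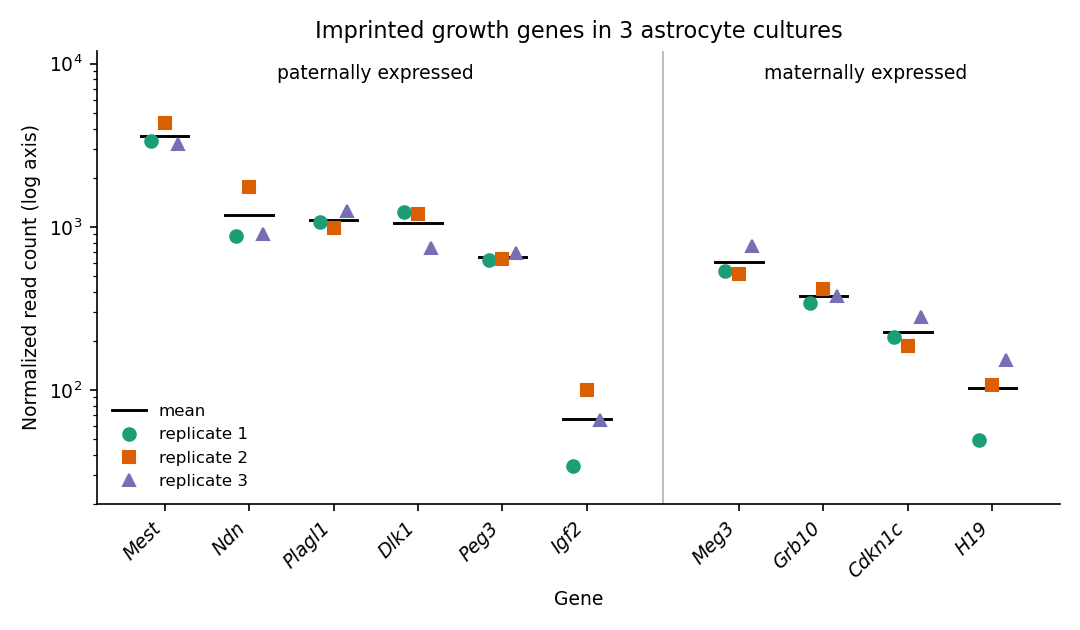
Normalized read count (log axis) of each imprinted growth gene in the 3 libraries, with a bar at the mean, paternally expressed genes on the left and maternally expressed ones on the right. Mest lies highest at 3242 to 4309 and Igf2 lowest at 34.2 to 100.005, and no maternally expressed gene exceeds 767.

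Mest, which encodes a membrane protein of the alpha/beta hydrolase fold and lies on chromosome 6 (30723547 to 30748465, plus strand, mm10), was the highest of the 10 by count and per kilobase. Replicates 1, 2 and 3 gave normalized read counts of 3336, 4309 and 3242, with a mean of 3629 ± 591 (SD, n = 3) and 15946 reads over the libraries. Replicate 2 was above the other libraries, which lay close together. By mean count Mest ranked 476 of all genes, which placed it at the 96.6 percentile of those detected. The highest library was 1.33 times the lowest (adjusted p = 1.19e-55, chi-square test). That call ended without replicate 2 (adjusted p = 0.245, chi-square test). Of the exon bases of Mest, 23.1% overlap Copg2 on the opposite strand, which stood at 943, 1047 and 853 in the same libraries, and the strand setting of the counting is not known.

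Ndn, on chromosome 7 (62346569 to 62350262, plus strand), encodes the MAGE family protein necdin, a growth suppressor of postmitotic cells. In replicate 1 it stood at 873 normalized reads, in replicate 3 at 900.4, and in replicate 2 at 1758, for a mean of 1177 ± 503 (SD, n = 3). Replicate 2 was 2.01 times the lowest library, while replicates 1 and 3 nearly coincided. The SD of its log2 values was 0.57, above 99.7% of the 3920 genes of similar mean (adjusted p = 5.14e-125, chi-square test). Without replicate 2 the adjusted p was 0.731 in the chi-square test, so the difference rests on that library. The summed neuronal markers were lowest in replicate 2, at 776 against 1161 in replicate 1 and 1186 in replicate 3, a sum that Stmn2 (701, 527 and 780 in replicates 1, 2 and 3) and Syt1 (222, 35.9 and 244) carried. Without them, a division chosen after seeing the values, the 7 other neuronal markers summed to 238, 213 and 163, lowest in replicate 3. Tubb3 made up most of that sum, at 190, 162 and 118 in replicates 1, 2 and 3. The part of the neuronal markers in the value of Ndn was not tested. Of the other MAGE genes listed, Maged1 stood at 10389 ± 323 and Nsmce3 at 250.04 ± 20.7, and per kilobase of exon Ndn lay below Maged1 by 2.98 ± 0.60 on the log2 scale (SD, n = 3).

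The nearest imprinted neighbours of Ndn were lower: per kilobase of exon Ndn had a mean of 319, against 15.0 for Mkrn3 and 27.2 for Peg12. Magel2, another paternally expressed MAGE gene, which begins 26.7 kb beyond the end of Ndn, had 1 read in all 3 libraries together. The ring finger gene Mkrn3 stood at 38.3 ± 6.35 and Peg12 at 71.9 ± 15.8. Snrpn, a splicing protein gene with the control region of the cluster, was at 278 ± 15.5 and was even between libraries (SD of log2 0.08). Ube3a, the ubiquitin ligase gene of Angelman syndrome that is maternally expressed in neurons, was named after its values were seen. Its counts were 524, 814 and 546 in replicates 1, 2 and 3, so it was also highest in replicate 2.

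Plagl1, on chromosome 10 (13060504 to 13131694, plus strand), encodes a zinc finger transcription factor that is known to regulate other imprinted genes. Normalized read counts were 1068, 984 and 1256 in replicates 1, 2 and 3 (mean 1103 ± 139, SD, n = 3), with replicate 3 the highest. The highest library was 1.28 times the lowest (adjusted p = 2.59e-09, chi-square test), and its SD of log2 values, 0.18, was at the 73.9 percentile for genes of its level. Per kilobase of exon Plagl1 was 2.48-fold above its relative Plagl2, a log2 difference of 1.31 ± 0.14 (SD, n = 3). Plag1, the founding gene of that family, had a mean of 3.69.

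Peg3, on chromosome 7 (6703892 to 6730431, minus strand), encodes a large zinc finger protein linked to growth and maternal behaviour, and it was the steadiest of the 10. The 3 libraries gave 630, 635 and 696 normalized reads (mean 654 ± 36.8, SD, n = 3). The SD of its log2 values was 0.08, above 22.5% of the 5054 genes of similar mean. It did not pass the test (adjusted p = 0.182, chi-square test), and its highest library was 1.11 times its lowest. The neighbouring imprinted genes Usp29 and Zim1, at 0.147 and 7.44 kb from it, had means of 3.77 ± 1.69 and 3.03 ± 1.06.

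Dlk1 and Meg3 lie 77.7 kb apart on chromosome 12, from 109452823 to 109463336 and from 109541001 to 109571726 on the plus strand. Dlk1 encodes a transmembrane protein of the Delta family that acts on stem cells and fat cell precursors, and Meg3 is a long non-coding RNA. Dlk1 had normalized read counts of 1237, 1191 and 744 in replicates 1, 2 and 3 (mean 1057 ± 272, SD, n = 3). Those of Meg3 were 536, 515 and 767 (mean 606 ± 139, SD, n = 3). Replicate 3 was thus the lowest library for Dlk1 and the highest for Meg3, and the other libraries nearly coincided in each gene.

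The ratio of Meg3 to Dlk1 counts was 0.433 in each of replicates 1 and 2 and 1.03 in replicate 3. The reads of each gene differed between libraries (adjusted p = 8.90e-28 for Dlk1 and 6.05e-15 for Meg3, chi-square test). Both calls ended without replicate 3, with an adjusted p of 0.212 for Dlk1 and 0.427 for Meg3 in the chi-square test. Per kilobase of exon Meg3 lay below Dlk1 in 3 of 3 libraries, with log2 differences of -2.84, -2.84 and -1.61. Among their neighbours the deiodinase gene Dio3 stood at 262 ± 18.2 and the long non-coding RNA Mirg at 46.8 ± 3.46 (SD, n = 3), and Rtl1, a gene derived from a retrotransposon, had 13 reads over the 3 libraries. Dlk1 was 3.09-fold above its relative Dlk2 per kilobase of exon. Of the 50-base stretches of Meg3, 4.29% occur in other annotated genes, and 6.79% of its exon bases overlap Gm26906 on the opposite strand.

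Igf2, on chromosome 7 (142650766 to 142666816, minus strand), encodes insulin-like growth factor 2, a fetal growth factor. It had 42, 212 and 55 reads in replicates 1, 2 and 3, or normalized counts of 34.2, 100.005 and 65.8 (mean 66.6 ± 32.9, SD, n = 3). H19, a long non-coding RNA gene 72.6 kb away on the same strand (142575529 to 142578143), had 61, 226 and 127 reads, or normalized counts of 49.6, 107 and 152 (mean 103 ± 51.2, SD, n = 3). Replicate 1 was the lowest library for each of them, at 0.513 of the mean of Igf2 and 0.483 of that of H19, whereas the highest was replicate 2 for Igf2 and replicate 3 for H19. Replicate 1 is the library with high Xist. It also had the lowest share of mitochondrial reads, 0.723% against 1.14% in replicate 2 and 1.07% in replicate 3, and the highest sum of microglial markers. The part of these in the values of Igf2 and H19 was not tested.

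Igf2 and H19 had the widest spread of the 10. Their SDs of log2 values were 0.77 and 0.81, at the 99.1 and 99.5 percentiles for their levels (adjusted p = 1.17e-09 for Igf2 and 1.66e-11 for H19, chi-square test). The adjusted p stayed at or below 0.0199 for Igf2 and 0.00490 for H19 over 6 alternatives, each library left out included. The alternative of a stricter threshold leaves the adjusted p itself as it was. The ratio of H19 to Igf2 counts was 1.45, 1.07 and 2.31 in replicates 1, 2 and 3. Per kilobase of exon H19 was higher in 3 of 3 libraries, by a log2 difference of 1.73 ± 0.54 (SD, n = 3), or 3.32-fold. Igf2 shares 61.2% of its 50-base stretches with Gm49394, an annotated gene on the same strand that spans it, so its counts are uncertain.

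Markers of other cells that are known to express Igf2 also varied over the libraries. The choroid plexus gene Ttr stood at 31.7, 557 and 13.2 in replicates 1, 2 and 3, highest where Igf2 was highest. The 5 other choroid plexus markers summed to 620, 522 and 550, lowest in replicate 2, most of it Folr1 at 425, 334 and 386. Of the rest, Aqp1 and Clic6 were highest in replicate 2, and Sostdc1 and Kl in replicate 1. However, Aqp1, Clic6 and Sostdc1 did not pass the chi-square test (adjusted p = 0.693, 0.149 and 0.259). Kl had only 10 reads over the libraries and was not tested. The 9 fibroblast and meningeal markers summed to 3349, 4080 and 3386, and among them Col1a1, Col1a2 and Ogn made up most of the sum at means of 592, 1072 and 1658, while Slc6a13 and Lum were at 0.954 and 2.20. Endothelial markers summed to 811, 792 and 862, most of it Kdr at 668, 644 and 757, while the 5 others summed to 143, 149 and 105 with Pecam1 at 5.43. Mural markers summed to 1607, 1681 and 1326, most of it Pdgfrb and Notch3 at means of 900.2 and 581, with Kcnj8 at 1.01. Their part in the values of Igf2 and H19 was not tested.

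Cdkn1c, on chromosome 7 (143458339 to 143461050, minus strand), encodes p57, an inhibitor of cyclin-dependent kinases that stops the cell cycle. Counts after normalization were 211 and 186 in replicates 1 and 2 and 280 in replicate 3, with a mean of 226 ± 48.4 (SD, n = 3). Replicate 3 was the highest library (adjusted p = 1.45e-05, chi-square test), and the call ended without it (adjusted p = 0.163, chi-square test). Its relatives of the Cip/Kip family were higher: per kilobase of exon Cdkn1c lay below Cdkn1a, which encodes p21, by 2.33 ± 0.50 and below Cdkn1b, which encodes p27, by 1.67 ± 0.23 on the log2 scale (SD, n = 3). Within its cluster, Kcnq1ot1, the paternally expressed non-coding RNA known to silence Cdkn1c on that allele, was at 24.1 ± 7.74, and the maternally expressed genes Kcnq1 and Slc22a18 were at 3.45 ± 3.32 and 4.59 ± 1.21. An annotated antisense gene, Gm44732, covers 30.7% of the exon bases of Cdkn1c.

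Grb10, on chromosome 11 (11930508 to 12038683, minus strand), encodes an adaptor that binds the insulin and IGF1 receptors and dampens their signal. The libraries gave 342, 413 and 375 normalized reads in replicates 1, 2 and 3 (mean 377 ± 35.4, SD, n = 3), a narrow range. The SD of its log2 values, 0.14, was at the 45.2 percentile for genes of its level. The adjusted p was 0.0229 in the chi-square test, and the call was lost without replicate 1 (0.294) or replicate 2 (0.386). Its relative Grb14 had a mean of 50.8, and per kilobase of exon Grb10 was 5.28-fold above it.

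**Figure D2:**
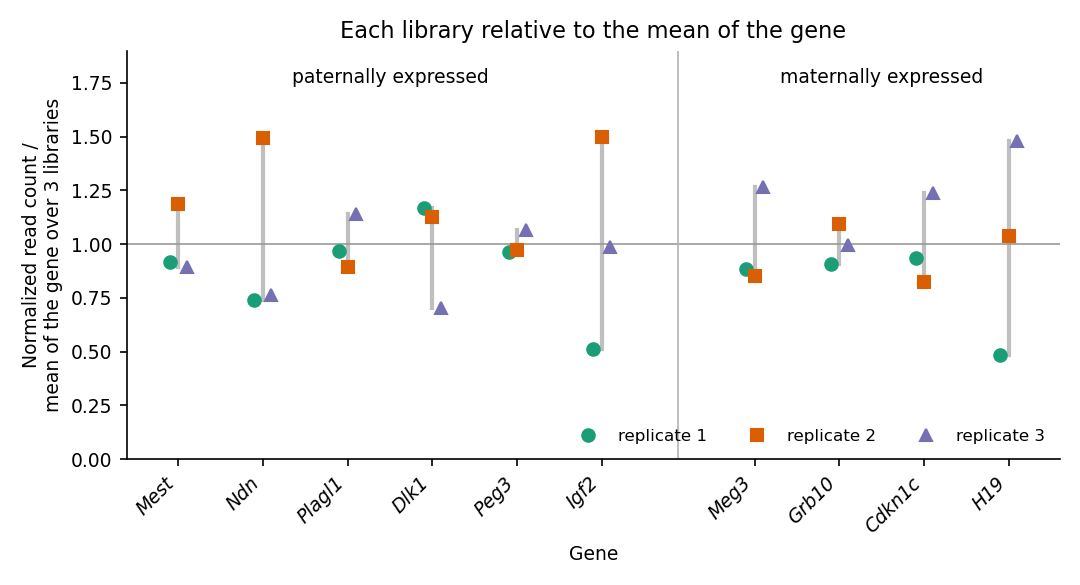
Normalized read count of each gene in each library divided by the mean of that gene over the 3 libraries, with a grey line from the lowest to the highest library. Ndn and Igf2 reach 1.49 and 1.5 in replicate 2, Dlk1 falls to 0.704 in replicate 3, H19 ranges from 0.483 in replicate 1 to 1.48 in replicate 3, and Peg3 stays within 0.963 to 1.06.

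No library was the highest for all genes. Replicate 3 was the highest for 5 of the 10, replicate 2 for 4 and replicate 1 for 1. The shares of all genes that were highest in each library are not given here, so these counts only describe the 10 genes. Among the maternally expressed genes replicate 3 was the highest for H19, Meg3 and Cdkn1c, 3 of the 4, and their class sum was 1140, 1221 and 1574 in replicates 1, 2 and 3. The paternally expressed genes summed to 7177, 8976 and 6903, a sum that Mest dominates, and replicate 2 was the highest library for Mest, Ndn and Igf2, 3 of the 6. The class sums thus peaked in different libraries, a difference that was not tested.

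By medians over all 3 libraries, spread was nearly the same in both classes, but neither the sign nor the size of the difference was settled. The median SD of log2 values was 0.32 for the 6 paternally expressed genes and 0.31 for the 4 maternally expressed ones, against 0.16 over all genes tested. The difference, 0.01, changed sign under 5 of 10 alternatives. Among them were the mean in place of the median (-0.019) and leaving out replicate 2 (-0.19). The filter on the mean could not change it, since every gene passed. The spread differed more within the classes: it ran from 0.08 for Peg3 to 0.77 for Igf2 among the paternal genes and from 0.14 for Grb10 to 0.81 for H19 among the maternal ones. Igf2, H19, Ndn and Dlk1 lay above the 98 percentile of genes of similar mean and Meg3 at the 94.9 percentile.

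**Figure D3:**
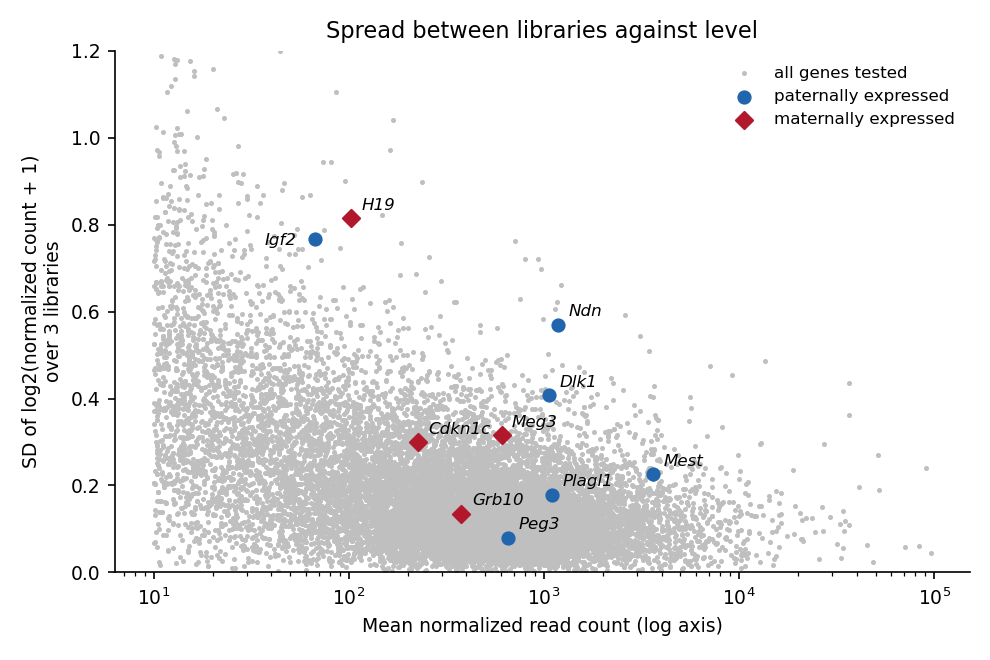
SD of log2(normalized count + 1) over the 3 libraries against the mean normalized read count (log axis) for the 13941 genes tested (grey) and the 10 imprinted growth genes; 34 genes with an SD above 1.2 lie outside the plot. H19, Igf2, Ndn and Dlk1 sit at the upper edge of the genes of their level, and Peg3 and Grb10 sit within the bulk.

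Levels of different genes were compared per kilobase of exon. The order of mean normalized count per kilobase was Mest at 920 ± 150, Ndn at 319 ± 136, Dlk1 at 187 ± 48.2, Plagl1 at 141 ± 17.8, Cdkn1c at 111 ± 23.7, Peg3 at 49.1 ± 2.76, H19 at 41.7 ± 20.8, Grb10 at 41.5 ± 3.9, Meg3 at 33.5 ± 7.71 and Igf2 at 11.6 ± 5.75 (SD, n = 3). Of the 9 steps in this order, 4 exceeded 2 SDs of the within-library log2 difference with the same sign in 3 of 3 libraries: Mest above Ndn, Plagl1 above Cdkn1c, Cdkn1c above Peg3, and Meg3 above Igf2. The step from Meg3 to Igf2 passed this limit only narrowly, at a log2 difference of 1.535 ± 0.765 (SD, n = 3). The other 5 steps fell short of this limit. Among them Ndn lay above Dlk1 in 3 of 3 libraries, by a log2 difference of 0.72 ± 0.55 (SD, n = 3), and the signs differed between libraries from Dlk1 to Plagl1 and from Peg3 through H19 and Grb10 to Meg3. Meg3 moved from the middle of the order by count to the ninth place because its annotated exons add up to 18089 bases, many from a single long transcript.

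The median of the paternally expressed genes lay above that of the maternally expressed ones in 3 of 3 libraries, by 2.34, 1.85 and 1.49 in replicates 1, 2 and 3 on the log2 scale per kilobase. The mean difference was 1.89 ± 0.43 (SD, n = 3), or 3.71-fold. The classes overlapped, since Cdkn1c exceeded Peg3 and Igf2, and all 4 maternal genes exceeded Igf2. The difference kept its sign under each of the 12 alternatives, but some of them could not change it. Every gene passed the filter on the mean, and with a library left out the value averages differences that were all above 0. It was 1.35 with means in place of medians and 0.49 when 28 other imprinted genes were added, so its size depended on which genes were counted.

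The 28 other imprinted genes with a row, from a list of 35, gave a wider picture of imprinted expression. Of them 20 were detected, and 15 had a mean count below that of Igf2. By count, the highest paternally expressed ones were Nnat, which encodes the small membrane protein neuronatin, at 2412 ± 100.1, Peg10, a gene derived from a retrotransposon, at 1827 ± 182, and the sarcoglycan gene Sgce at 1339 ± 156. The highest maternally expressed ones were Ppp1r9a, an actin-binding scaffold gene, at 1178 ± 155, Igf2r, the receptor that clears IGF2, at 822 ± 76.3, and Trappc9, a vesicle transport gene, at 787 ± 103. Of the 20 tested, 9 (45%) passed the chi-square test between libraries, against 55.4% of all genes. Among genes of similar mean the share ran from 24.2% for Rasgrf1 to 84.9% for Nnat. The median SD of log2 values of the 20 was 0.19, against 0.16 over all genes tested. Only Ube3a among these 20 lay above the 90 percentile of SD for its level, as 5 of the 10 growth genes did, a difference that was not tested.

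**Figure D4:**
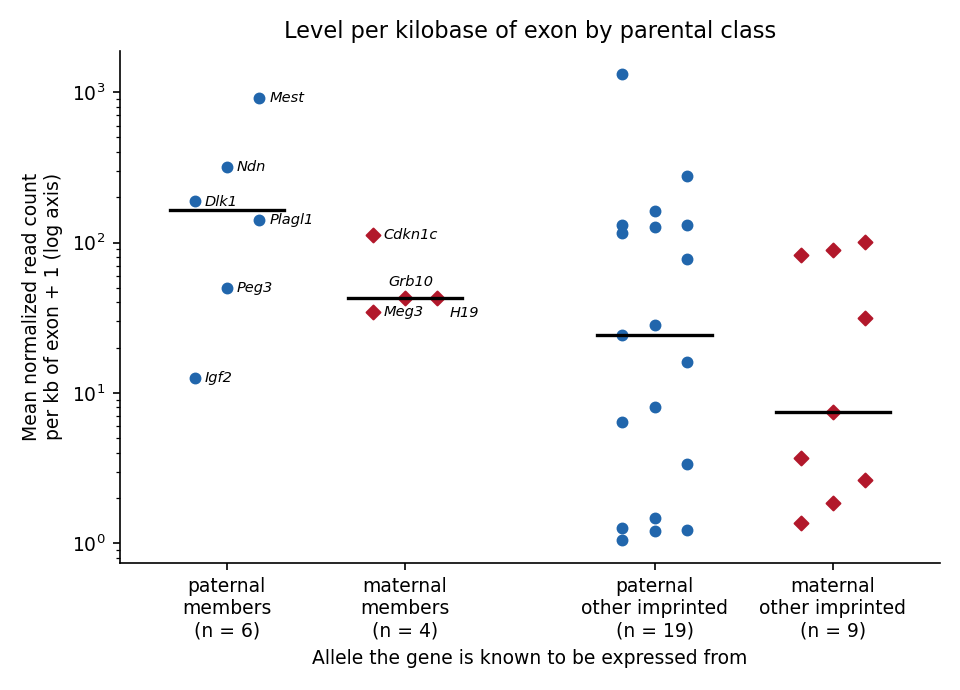
Mean normalized read count per kilobase of exon plus 1 (log axis) of the 10 imprinted growth genes and of 28 other imprinted genes by the parental allele they are known to be expressed from, with a bar at each median. The 6 paternally expressed growth genes have a median of 164 per kilobase and the 4 maternally expressed ones 41.6, and the other imprinted genes reach from below 1 to the level of Nnat at 1319.

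Igf2 and Grb10 belong to the insulin-like growth factor pathway, in which ligands act through the receptor kinases Igf1r and Insr and are held by binding proteins. Of the ligands, Igf1 stood at 635 ± 56.6, and per kilobase Igf2 lay below it by 2.47 ± 0.71 on the log2 scale (SD, n = 3). The receptor genes Igf2r, Igf1r and Insr stood at 822, 732 ± 31.2 and 670 ± 58.8. Of the binding proteins, Igfbp5 stood at 90346 ± 15594, Igfbp2 at 24553 ± 1601 and Igfbp3 at 5259 ± 674. Per kilobase of exon Igfbp5 and Igfbp2 reached 15043 and 13293, against 43.6 for Igf1r and 11.6 for Igf2. Downstream, the adaptor genes Irs2, Grb2 and Irs1 stood at 1517 ± 188, 1281 ± 27.7 and 1131 ± 77.3. Pappa and Pappa2, proteases that free IGFs from binding proteins, were at 54.9 ± 16.5 and 18.5 ± 11.4. The IGF2 mRNA-binding proteins Igf2bp2, Igf2bp3 and Igf2bp1 stood at 218 ± 60.2, 112 ± 6.30 and 19.8 ± 7.01. By group, reads differed between libraries for 2 of 2 ligands, 2 of 3 receptors, 5 of 5 binding proteins tested, 3 of 5 adaptors, 2 of 2 proteases and 1 of 3 RNA-binding proteins, with 55.4% of all genes as the background. Among genes of similar mean the share differed widely. For the binding proteins tested it ran from 52.0% for Igfbp7 to 100% for Igfbp5, which had only 7 such genes. For Pappa and Pappa2 it was 32.5% and 21.2%.

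Genes that maintain imprints were expressed. All 15 listed regulators with a row were detected, 13 of them with means of at least 100. Trim28, a corepressor recruited by ZFP57, stood at 3053 ± 365, the de novo methyltransferase gene Dnmt3a at 1908 ± 43.8, the maintenance methyltransferase gene Dnmt1 at 1629 ± 107 and Ctcf at 1119 ± 133. Zfp57 itself, named after its value was seen, was at 26.1 ± 8.49, and Zfp445, another zinc finger gene that keeps imprints, at 541 ± 35.7. Of the 15, 8 differed between libraries, against 55.4% of all genes. Among genes of similar mean the share was 87.3%, 82.6%, 80.2% and 75.1% for Trim28, Dnmt3a, Dnmt1 and Ctcf. For Dnmt3b, at a mean of 24.7, it was 24.3%. The median SD of log2 values of the 15 was 0.12, below that of the 10 growth genes.

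The pattern of H19, the most variable of the 10, was compared with those of 10556 genes whose mean was at least 100. The nearest by Euclidean distance of centred log2 values over the 3 libraries were Omd, a small leucine-rich proteoglycan gene, at a distance of 0.08, then Setd3 at 0.34, Scg2 at 0.36, Orc4 at 0.41 and Prpf39 at 0.45. Omd stood at 94.3, 195 and 264 in replicates 1, 2 and 3. None of these 5 is among the imprinted genes listed. With 3 libraries such likeness is a description only.

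By position, 5 of the 10 genes lie on chromosome 7, in 3 separate places: Peg3 near one end, Ndn in the middle, and H19, Igf2 and Cdkn1c within 880 kb of each other towards the other end. H19 and Igf2 were both lowest in replicate 1, and H19 and Cdkn1c were both highest in replicate 3. Igf2 was highest in replicate 2, where Cdkn1c was lowest. Over all 10 genes, 8 encode proteins and 2 are long non-coding RNAs. The non-coding genes H19 and Meg3 were both highest in replicate 3, the library that was highest for 5 of the 10.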

How the data were processed

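RNA from 3 cultures of mouse cortical astrocytes was sequenced. A stranded kit for poly(A) RNA was used, per the labels' protocols. The deposited values are a signal per gene: read counts that the authors divided by a size factor per library with DESeq2, on build mm10, per the submitters' processing notes. The sources used here name no aligner, counter, strand setting or annotation. Values were whole multiples of 1 read in 100% of cases (tolerance 0.05 reads), so reads were recovered. The authors' mean column was not used.

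GENCODE vM21, also on mm10, held 19366 of the 19471 gene identifiers and gave positions and exon lengths. Log2 values carry a pseudocount of 1. A chi-square test per gene set its reads in the 3 libraries against reads expected from the library totals. It was run on the 13941 genes whose mean was at least 10 (called detected) and whose reads were at least 30, with Benjamini-Hochberg adjustment over all of them. Genes of similar mean are those at 0.5 to 2 times a gene's mean. Levels of different genes were compared per kilobase of exon. No test was made between the parental classes, because the smallest p of an exact two-sided sign-flip test over 3 libraries is 0.25. The chi-square procedure was tested on simulated data. Promoter and microRNA sequences are from RefSeq on GRCm38.p6, and 8 of the 10 genes had a promoter entry.

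The genes, the lists and the tests were chosen with earlier results of these data known. The genes named are all 10 imprinted growth genes, the 3 highest genes of each list of imprinted, pathway, regulator and related genes together with all others of it at a mean of 1000 or more, and the 5 genes nearest in pattern to the most variable of the 10. Cell type markers are given by their sums, with some markers and a few further genes picked with their values in view. Alternatives were another expectation, filter, threshold, pseudocount, length, scaling, summary and class of Grb10, the addition of other imprinted genes, and each library left out. Scripts ran on Python 3.11.15, SciPy 1.17.1, numpy 2.4.6, matplotlib 3.10.9 and pandas 2.3.3.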

Additional observations from a re-analysis of the deposited data

How the results depend on the processing

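The number of imprinted growth genes whose reads differed between libraries was 9 of 10. It was 9 with expected reads from the size factors (55.3% of all genes) or with no filter on low genes (39.6%), 8 at an adjusted p under 0.01 (44.0%), and 6 to 8 with 1 library left out, where 35.8% to 40.2% of all genes passed. Beside the calls named above, that of Grb10 was the one lost at the stricter threshold. The level difference between the paternal and maternal classes was 1.35 with means in place of medians, 0.49 with other imprinted genes added, and 1.67 to 2.09 with 1 library left out. The difference in spread was -0.019 with means in place of medians, -0.089 with Grb10 placed with the paternal genes, -0.089 with other imprinted genes added, and -0.19 to 0.012 with 1 library left out. Without division by exon length the log2 difference of H19 from Igf2 was 0.60 and that of Meg3 from Dlk1 was -0.79. These shifts follow from the exon lengths, which differ most for Meg3. With 1 library left out the differences were 1.43 to 1.97 for H19 and -2.84 to -2.23 for Meg3. Counts of 42 to 61 reads in replicate 1 limit Igf2 and H19. No paired analysis was possible because the libraries form a single group.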
